A study of Sus scrofa with 6 samples.

Results

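The comparison described here set the culture of growth plate chondrocytes at day 20 against the culture of articular chondrocytes at day 20, 1 porcine Affymetrix array each. They were chosen by their labels, and are 2 of the 6 arrays of the series. The others are both cartilages as native tissue and both cultures at day 10, again 1 array each. Both cultures were primary pig chondrocytes released by collagenase and kept without added agents in DMEM/Ham's F12 with fetal bovine serum and antibiotics, at 37 °C under 5% oxygen with 5% CO2. The labels call the days days of differentiation. They give no strain, age or genotype, and do not say how many animals each culture came from or whether both cartilages were taken from the same animals.

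Growth plate cartilage is the transient cartilage that lengthens bones: its chondrocytes divide, enlarge (hypertrophy), mineralise their matrix and are replaced by bone. Articular cartilage covers the joint surface for life and does not normally mineralise. IHH, a signal of prehypertrophic cells, and PTHLH, acting through its receptor PTH1R, form a feedback loop that sets the pace of hypertrophy, and BMP, TGF-beta, WNT, FGF and IGF signals act on the same cells. The comparison asks which genes set the cells of these cartilages apart after 20 days in the same medium.

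Values are signals, the linear brightness of a probe set. Signals under a floor of 36.1, the 40th percentile of all signals, were raised to it before log2 was taken, so where the lower culture lay under the floor a fold is a lower bound and is written "at least". Each of 5598 genes was represented by 1 probe set. There is no replicate, so no difference has a replicate check and no p-value is given. A rule of at least 4-fold stands in for a call and a rule of at least 2-fold is used for gene lists. A log2 ratio is always growth plate over articular. In cultured bulk samples, fewer cells of a type and less RNA per cell cannot be told apart.

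The day 20 cultures were the most alike of the 15 pairs of arrays, with Pearson's r of 0.965 across genes. The next pair was the day 10 cultures, at 0.962. Of the genes compared, 78.7% were less than 1.5-fold apart at day 20, and the SD of the log2 ratio over genes was 0.58. At least 4-fold apart were 62 genes (1.11%), 22 with the higher signal in growth plate (0.393% of all) and 40 with the lower (0.715%). At 2-fold the counts were 159 (2.84%) and 226 (4.04%). Median signals of the arrays lay between 59.5 and 71.5, and 95.1% and 95.5% of the genes compared were above the floor on the growth plate and articular day 20 arrays.

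**Figure D1:**
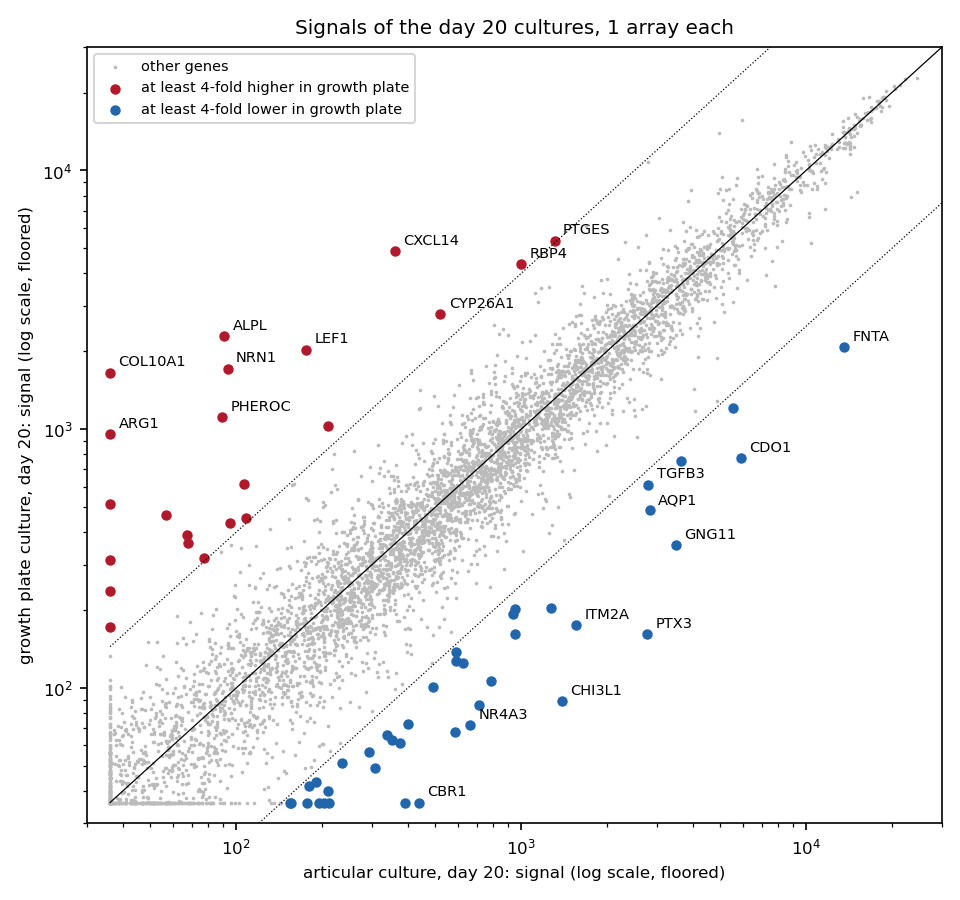
Signal of each gene in the growth plate culture (vertical axis) against the articular culture (horizontal axis) at day 20, both on log scales and floored at 36.1; 1 point is 1 gene on 1 array per culture, the solid line marks equal signals and the dotted lines 4-fold. The 22 coloured points above the upper dotted line and the 40 below the lower one are the genes at least 4-fold apart, and points on the edges lie at the floor.

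Of the 62 differences, 38 had been present at day 10, in cultures that share no array with the day 20 pair. Of the 22 higher genes, 12 were at least 2-fold higher at day 10, where 3.41% of all genes were. Of the 40 lower genes, 26 were at least 2-fold lower at day 10, where 3.88% of all genes were. The native tissues gave a more mixed picture. There 15 of the 22 kept a ratio of 2-fold or more (12.9% of all genes had one in that direction), and so did 12 of the 40 (7.88%). However, 9 of the 40 lay at least 2-fold on the other side, where 12.9% of all genes lay. In all 3 pairs, 10 genes of each direction kept a difference of at least 2-fold. Of the 62, 4 (COL10A1, ANKRD1, SST and LOC100154873) passed the filter on low signals only through the tissue where they were high, which fixed their direction.

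**Figure D2:**
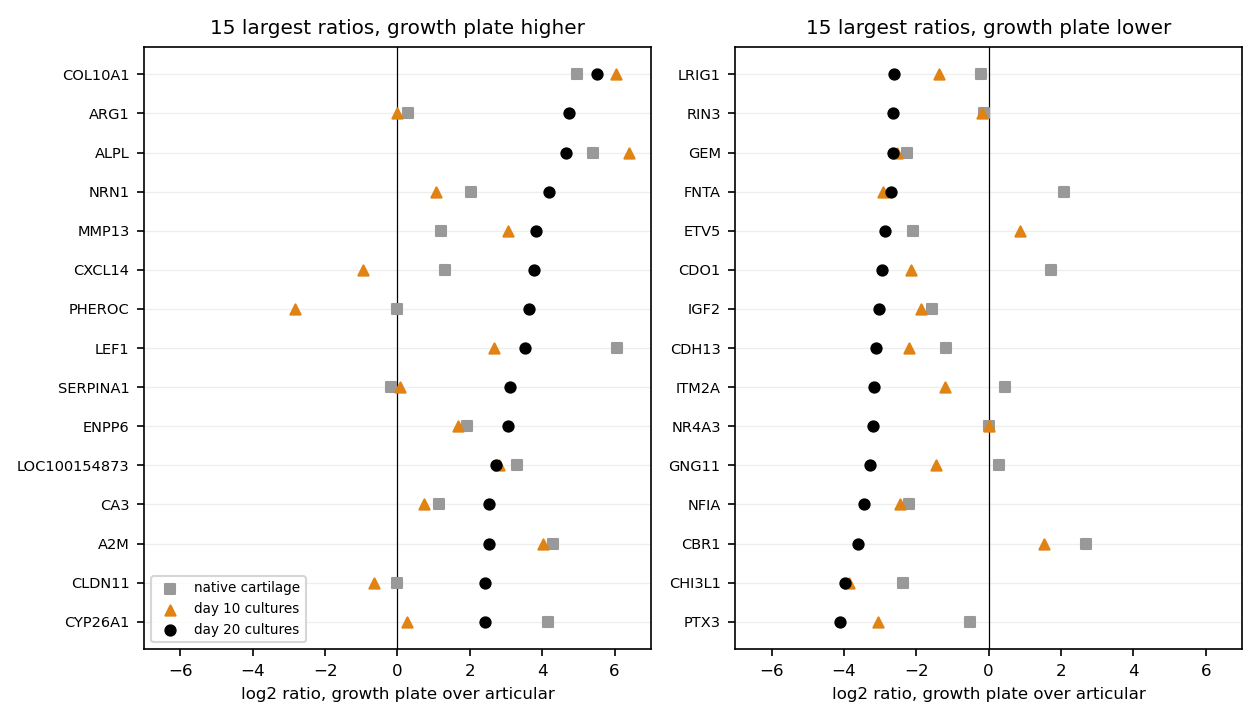
Log2 ratio of growth plate over articular for the 15 genes each way with the largest day 20 ratio, in native cartilage (squares), day 10 cultures (triangles) and day 20 cultures (circles), 1 array against 1 array each. ARG1, SERPINA1 and NR4A3 lie near 0 in both other pairs, and CBR1, CDO1 and FNTA lie on the opposite side in native cartilage.

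Both cultures had the transcripts that define cartilage, at close levels. COL2A1, the main cartilage collagen, had a day 20 signal of 1603 in growth plate cultures against 1689 in articular ones. Pairs of signals are given in that order throughout. HAPLN1, which links aggrecan to hyaluronan, had 15365 and 16969.6. ACAN, the core protein of aggrecan, had 6596 and 10267, and COMP, a matrix protein that bridges collagen fibrils, had 5326 and 8205. SOX9, the master transcription factor of chondrocytes, was above the floor in both, at 118 and 76.8. On the probe sets used, none of the 6 hyaline matrix genes compared was 2-fold apart, with a median log2 ratio of -0.11 where all genes had -0.04. A second, dimmer probe set of COMP had 52.3 and 121.6, a log2 ratio of -1.22.

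Most markers of several other cell types were under the floor in both cultures. This held for 9 of 9 macrophage and leukocyte markers on the array, 5 of 8 endothelial and 4 of 6 skeletal muscle markers. It also held for 4 of 5 epithelial, 4 of 5 osteoclast and 2 of 3 erythroid markers. The osteoclast markers still summed to 7846 and 8299, almost all from the 1 above the floor. Of adipocyte and osteoblast markers, only 2 of 6 and 2 of 5 were under the floor in both. Of the osteoblast markers, BGLAP was under the floor in both, DMP1 had 6.66 and 39.5, and only IBSP was 2-fold apart. Most markers of fibroblasts and smooth muscle were above it. Smooth muscle and pericyte markers had summed signals of 19548 and 23457, most of it from ACTA2, a smooth muscle actin, at 17679 and 19493. Of the 5 compared, CNN1, a calponin of contractile cells, at 561 and 1472, and PDGFRB, a growth factor receptor, at 941 and 2117, were 2-fold or more lower in growth plate, and RGS5 was under the floor in both.

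Synovial and perichondrial fibroblast markers summed to 10796 in growth plate and 16099 in articular cultures, with none of the 7 under the floor. POSTN and PDPN were lower in growth plate by over 4-fold (0.715% of all genes), while THY1, COL3A1, CD34, DPT and MFAP5 were less than 2-fold apart. S100B, a marker of Schwann cells that chondrocytes also express, had 1908 and 4166. LEP, the leptin of fat cells, had 20.6 and 82.2, but 2 of the 3 adipocyte markers compared had positive log2 ratios. The median of those 3 was 0.21, and the adipocyte markers on the array summed to 1003 and 944. The part of these cells in the differences described next was not tested.

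Genes of hypertrophy and mineralisation had the second highest median of the 27 gene lists. Of 17 compared, 6 were higher in growth plate by 2-fold or more and 0 lower (2.84% and 4.04% of all genes), with a median log2 ratio of 0.68. COL10A1, the collagen of hypertrophic cartilage, had day 20 signals of 1655 and 30.8 and was at least 45.8-fold higher. ALPL, the phosphatase that frees phosphate for mineral, had 2287 and 90.9, a 25.1-fold difference. MMP13, the collagenase of the mineralising zone, had 513 and 30.5 and was at least 14.2-fold higher. At day 10 they were apart by at least 65.7-fold, at least 84.6-fold and at least 8.29-fold.

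The mineral-binding proteins showed a smaller gap. SPP1, osteopontin, had 13958 and 4955 at day 20, a 2.82-fold difference. At day 10 it had 11654 and 10658, so the articular culture alone was lower at day 20. IBSP, bone sialoprotein, was 2.63-fold higher in growth plate at day 20 and 45.5-fold higher at day 10, its articular signal being 309 at day 10 and 5958 at day 20. PTH1R had 3352 and 1118 at day 20 and 4864 and 503 at day 10, a log2 ratio of 1.58 after 3.27. In all of these the growth plate signal at day 20 was within 1.5-fold of that at day 10, and it was the articular signal that had moved.

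The ligands of the hypertrophic loop were less than 2-fold apart at day 20. IHH had 82.1 and 48.0 at day 20, after 448 and 49.9 at day 10, so its ratio was 1.71-fold where it had been 8.98-fold. PTHLH had 856 and 756 at day 20 and 28.7 and 95.4 at day 10, so both cultures were far higher at the later day. PHOSPHO1, a phosphatase of matrix vesicles, had 306 and 208 at day 20 after 1684 and 309 at day 10.

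Transcription factors of limb and cartilage cells leaned to the articular side at day 20, with 9 negative and 5 positive log2 ratios. Of 14 compared, 6 were lower in growth plate by 2-fold or more, as were 4.04% of all genes, and 0 higher, with a median log2 ratio of -0.50. At day 10, 3 were lower and 3 higher by 2-fold or more, and the median was 0.195. Among the 6 lower at day 20 were NFIA and NFIB, related factors of the nuclear factor I family. NFIA had 34.6 in growth plate, under the floor, and 392 in articular cultures, at least 10.8-fold lower, and its other 2 probe sets were under the floor in both. NFIB had 125 and 628, a 5.02-fold difference, and a second probe set gave a log2 ratio of -3.06. Both were also lower in growth plate at day 10 and in native tissue, by log2 ratios of -2.46 and -2.21 for NFIA and -1.45 and -2.55 for NFIB.

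ETV5, an ETS factor induced by FGF signalling, was also lower in native growth plate, by a log2 ratio of -2.10, but not at day 10. It had 107 in growth plate and 782 in articular cultures at day 20, 7.32-fold lower, but 167 and 91.8 at day 10, when the articular signal was the lower. HOXD10, a limb patterning factor, had 223 and 550.2, KLF9, a glucocorticoid-induced zinc finger factor, had 697 and 1537, and ERG, a factor of developing joints, had 388 and 782. ERG was 2.02-fold lower and falls just short of the 2-fold rule when arrays are scaled to equal medians, which gives a log2 ratio of -0.97. 

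**Figure D3:**
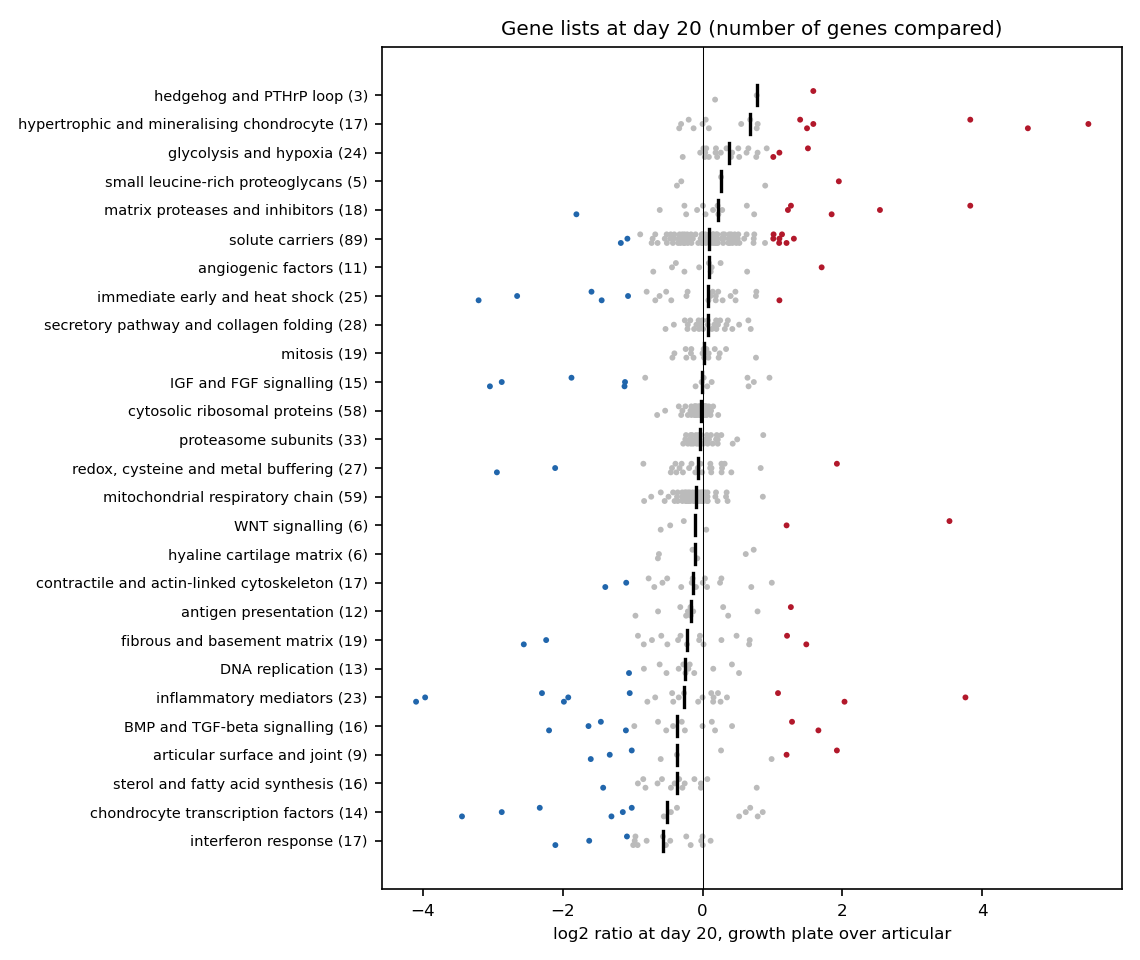
Log2 ratio at day 20 of every gene compared in 27 gene lists, 1 point a gene, with the number of genes in brackets and the list's median as a black bar; red points are at least 2-fold higher and blue points at least 2-fold lower in growth plate. The lists are ordered by median, from 0.78 for 3 genes of the hedgehog and PTHrP loop to -0.57 for 17 interferon response genes.

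Of 6 genes of WNT signalling, 2 were at least 2-fold higher in growth plate and 0 lower (2.84% and 4.04% of all genes), and 3 had negative ratios, with a median of -0.11. LEF1, which carries WNT signals to DNA, had 2031 in growth plate and 176 in articular cultures, 11.6-fold higher, and DKK3, a secreted protein of the Dickkopf family, had 5314 and 2311. CTNNB1, beta-catenin, the shared effector, had 8213 and 7915. SFRP1, a secreted WNT inhibitor, had 118 and 179, less than 2-fold apart, after 58.8 and 453 at day 10.

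Genes of the articular surface and joint went both ways. Of 9 compared, 2 were higher in growth plate by 2-fold or more and 3 lower (2.84% and 4.04% of all genes), the median being -0.37. Lower with ERG were VCAM1, an adhesion molecule, at 288 and 872, and TPPP3, a tubulin-binding protein of tendon and joint cells, at 15.6 and 90.6. Higher with DKK3 was GPX3, a secreted glutathione peroxidase, at 335 and 88.5. CLU, clusterin, and PRELP, a proteoglycan, had 3789.5 and 12445 in growth plate cultures, against 1911 and 10359 in the articular ones, both under 2-fold apart.

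Growth factor genes differed in both directions. The ligands of the TGF-beta family were split: TGFB2 had 2526 in growth plate and 801 in articular cultures, and its 3 other probe sets gave log2 ratios between 1.79 and 2.15 against 1.66 for the one used. TGFB1 had 718 and 296, a 2.43-fold difference. TGFB3 had 610.4 and 2794 and was 4.58-fold lower, with -0.79 on its other probe set. BMP4 had 267 and 569.7 at day 20, 2.14-fold lower in growth plate, and 319.7 and 107 at day 10, 2.98-fold higher. FST, the follistatin that traps activins, had 47.8 and 148. The BMP and TGF-beta list of 16 genes held 2 that were higher by 2-fold and 4 that were lower (2.84% and 4.04% of all genes), with a median of -0.36, the other lower one being ID4, an inhibitor of helix-loop-helix factors, at 18.1 and 99.0.

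IGF2, a fetal growth factor, had 86.3 in growth plate and 710.2 in articular cultures, 8.23-fold lower, and it was lower at day 10 and in native tissue too, by log2 ratios of -1.88 and -1.56. The gene has many probe sets, of which 8 others were above the floor on a day 20 array. They gave log2 ratios from -4.25 to 0.88, and the mean over all probe sets was -0.80. IGF1 had 58.0 and 125, and IGFBP2, a binding protein that holds IGFs, had 81.9 and 300.1; both were under the floor in both cultures at day 10. IGFBP5 was on the other side, at 497 and 256. Of 15 genes of IGF and FGF signalling, 5 were at least 2-fold lower and 0 higher, where 4.04% and 2.84% of all genes were. The list had 7 positive and 8 negative ratios and a median of -0.01. The other lower members were ETV5 and FGFR1, an FGF receptor, at 383 and 829.

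Matrix genes outside the hyaline list differed in both directions. LUM, lumican, a proteoglycan that spaces collagen fibrils, had 10749 and 2784 at day 20, a 3.86-fold difference, after 779.6 and 1498 at day 10. It was the 1 of 5 small leucine-rich proteoglycans at least 2-fold higher, and 0 were lower (2.84% and 4.04% of all genes). COL1A2, a chain of the collagen of bone and fibrous tissue, had 2343 and 838 after 381 and 585. COL5A2, a chain that nucleates such fibrils, had 228 and 98.5. On the articular side, POSTN, periostin, had 161 in growth plate and 949 in articular cultures, 5.88-fold lower, and COL4A2, a basement membrane collagen, had 202 and 951, 4.71-fold lower. The 19 genes of fibrous and basement matrix had 2 members higher and 2 lower by 2-fold (2.84% and 4.04% of all genes), a median of -0.22, where at day 10 they had 1 higher and 8 lower and a median of -0.80. ASPN, asporin, a proteoglycan that binds TGF-beta, was 7.26-fold lower in growth plate at day 10 and 1.29-fold lower at day 20, with 777 and 5643 at the first and 8482 and 10935 at the second.

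Of 18 proteases and inhibitors, 5 were at least 2-fold higher in growth plate and 1 lower (2.84% and 4.04% of all genes), with a median of 0.22. Besides MMP13 the higher ones were A2M, a broad protease inhibitor, at 389 and 67.1, F3, tissue factor, which starts coagulation, at 6099 and 1697, MMP14, a membrane collagenase, at 156 and 65.1, and TIMP3, a metalloproteinase inhibitor, at 449 and 193. The other probe sets of A2M lay under the floor in both cultures. F3 had 1917 and 1685 at day 10, so the growth plate culture alone was higher at day 20. The member on the articular side was PLAU, urokinase, at 1172 and 4093. Of 17 contractile and actin-linked genes, 2 were lower by 2-fold and 0 higher, against 4.04% and 2.84% of all genes: CNN1 and PDLIM7, an actin-linked adaptor, at 280.3 and 597.

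Among inflammatory mediators, 3 of 23 were higher in growth plate by 2-fold or more and 6 lower (2.84% and 4.04% of all genes), with a median of -0.26. CXCL14, a chemokine, had 4873 in growth plate and 359.8 in articular cultures, a 13.5-fold difference, and its second probe set gave a log2 ratio of 3.73 against 3.76. PTGES, which makes prostaglandin E, had 5357 and 1311, a 4.08-fold difference, and PTGS2, the enzyme before it, had 1217 and 576. PTX3, a pentraxin of innate immunity, had 162 and 2766, 17.1-fold lower, and CHI3L1, a secreted chitinase-like protein, had 89.3 and 1395, 15.6-fold lower. The chemokines CXCL2 and CCL5 were under the floor in growth plate, at 24.3 and 30.5, and had 177 and 143 in articular cultures. CCL2, which draws monocytes, had 375 and 1419. The remaining lower gene was NFKBIA, which holds NF-kappa B in the cytoplasm, at 387 and 797. CXCL8, a neutrophil chemokine, and ICAM1, an adhesion molecule, were less than 1.5-fold apart.

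Interferon response genes were lower in growth plate across most of the list. Of 17 compared, 14 had negative and 2 positive log2 ratios, where 3002 and 2488 of all 5598 genes did. The median was -0.57, and 3 were at least 2-fold lower, where 4.04% of all genes were. ISG15, a ubiquitin-like protein, had 36.0, just under the floor, in growth plate and 155 in articular cultures, MX1, an antiviral GTPase, had 159.7 and 491, and IRF1, a transcription factor of the response, had 136 and 288. At day 10 the median was -0.14 and 1 gene was 2-fold higher and 0 lower. Averaging each gene's probe sets, the day 20 median was -0.32. The 12 antigen presentation genes had 8 negative and 4 positive ratios, closer to the split of all genes, and a median of -0.17. Of them 1, SLA-3, was at least 2-fold higher (2.84% of all genes). SLA-3 and SLA-2, classical class I genes, had 1230.2 and 2762 in growth plate cultures, against 513 and 1601 in the articular ones. These class I genes are close copies, and whether their probe sets tell them apart is not stated.

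Some enzymes and carrier proteins at least 4-fold apart, chosen by their values and not from a list, are given next. ARG1, arginase, which splits arginine into ornithine and urea, had 957 in growth plate and 11.2 in articular cultures, at least 26.5-fold higher, and was under the floor in both at day 10. CA3, a carbonic anhydrase, had 617 and 106, a 5.81-fold difference, with 2.47 on its second probe set against 2.54. CYP26A1, which breaks down retinoic acid, had 2792 and 521, and RBP4, the carrier of retinol, had 4357 and 998; they were 5.35-fold and 4.36-fold higher. ENPP6, a choline phosphodiesterase, had 468 and 56.5. GYS1, a glycogen synthase, is 4.12-fold apart and had 317 and 77.0, but another probe set gave a log2 ratio of 0.21 against 2.04, and a further one was under the floor in both cultures. On the articular side were CBR1, a carbonyl reductase, at 27.0 and 438, CDO1, which oxidises cysteine, at 771 and 5919, and SELENOP, a selenium carrier, at 138 and 593. Of 27 genes of redox and metal buffering, GPX3 was at least 2-fold higher and CDO1 and SELENOP lower (2.84% and 4.04% of all genes). Ferritins, peroxiredoxins and thioredoxin were under 1.5-fold apart.

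Glycolysis and hypoxia genes were slightly higher in growth plate almost throughout. Of 24 compared, 22 had positive log2 ratios, as did 2488 of all 5598 genes, with a median of 0.37, and 3 were at least 2-fold higher (2.84% of all genes). ANKRD37, induced by hypoxia-inducible factor, had 3549 and 1248, SLC2A3, a glucose transporter, had 6548 and 3057, and SLC2A1, another, had 3363 and 1668. The last is 2.02-fold apart and has a log2 ratio of 0.98 after quantile normalization. At day 10 the median was 0.07 and no member was 2-fold apart. ENO2, an enolase, was under the floor in both cultures at day 10 and had 1391 and 816 at day 20. Glycolytic enzymes included ENO1, GAPDH and PFKP, at log2 ratios of 0.01, 0.03 and 0.05, and TPI1, HK1 and ENO2, at 0.42, 0.63 and 0.77.

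Sterol and fatty acid synthesis genes were lower in growth plate in 14 of 16 cases, as were 3002 of all 5598 genes. Their median log2 ratio was -0.37 at day 20 and 0.06 at day 10. SQLE, squalene epoxidase, had 502 and 1345 and was the sole member at least 2-fold apart, where 4.04% of all genes were at least 2-fold lower. CYP51, HMGCS1 and INSIG1, of the same pathway and its control, had 881, 588 and 579 in growth plate cultures, against 1672, 918 and 1042 in the articular ones. SCD, which desaturates fatty acids, was on the other side, at 8509.8 and 4974. The sterol genes named here had higher signals at day 10 in both cultures, SQLE for example 3264 and 2866.

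Large gene groups of basic cell functions had small ratios. No member of 19 mitotic, 58 cytosolic ribosomal protein, 59 respiratory chain, 33 proteasome or 28 secretory pathway genes was 2-fold apart (2.84% of all genes were higher and 4.04% lower). Their medians lay between -0.10 and 0.07. Of the respiratory chain genes, 43 had negative and 16 positive log2 ratios, where 3002 and 2488 of all 5598 genes did. Of 13 DNA replication genes, 10 had negative and 3 positive log2 ratios, with a median of -0.24 where all genes had -0.04. At day 10 all 13 were negative, with a median of -0.61. MCM5, a subunit of the replicative helicase, was the 1 at least 2-fold lower in growth plate (4.04% of all genes). It had 160.2 and 332, with -0.24 on its other above-floor probe set. Solute carriers had 7 of 89 at least 2-fold higher in growth plate, where 2.84% of all genes were, and 2 lower (4.04%). The largest ratio among them was that of SLC35A3, which carries UDP-N-acetylglucosamine into the Golgi, at 1653 and 669.

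Several of the remaining genes at least 4-fold apart code for surface and signalling proteins. NRN1, neuritin, a lipid-anchored protein of neurite growth, had 1714 in growth plate and 93.4 in articular cultures, 18.3-fold higher, and its second probe set was higher as well, by a log2 ratio of at least 2.68. CLDN11, a claudin of tight junctions, had 365 and 67.8, and UNC5B, a netrin receptor, had 452 and 108. Lower in growth plate were GNG11, a G protein subunit, at 357 and 3486, ITM2A, a membrane protein, at 176 and 1564, and CDH13, a cadherin without a cytoplasmic part, at 67.7 and 585. Their ratios were 9.77-fold, 8.91-fold and 8.64-fold, and all 3 were at least 2-fold lower at day 10. LRIG1, which restrains receptor tyrosine kinases, had 61.1 and 376, and RIN3, a regulator of small GTPases of endocytosis, had 49.2 and 306. ANGPT1, a ligand of the vascular receptor TIE2, had 704 and 216, while VEGFA had 5792 and 5440. ANGPT1 was the 1 of 11 angiogenic factors at least 2-fold higher, and 0 were lower (2.84% and 4.04% of all genes).

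The water channel AQP1 had 486 and 2831 at day 20 and 117 and 391 at day 10. Its other probe set, close to the floor, gave a log2 ratio of -0.10 against -2.54. Among 25 immediate early genes and heat shock genes, 5 were lower in growth plate by 2-fold or more and 1 higher, where 4.04% and 2.84% of all genes were. The list had 13 positive and 12 negative ratios and a median of 0.08. NR4A3, an orphan nuclear receptor, had 72.0 and 663 and GEM, a small GTPase, had 204 and 1279. EGR1 and FOS, transcription factors, and HSPA6, a heat shock protein, had 339, 1190.0 and 115 in growth plate cultures, against 1018, 2490.2 and 313 in the articular ones, and IER3, at 2167 and 1011, was the member on the growth plate side.

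**Figure D4:**
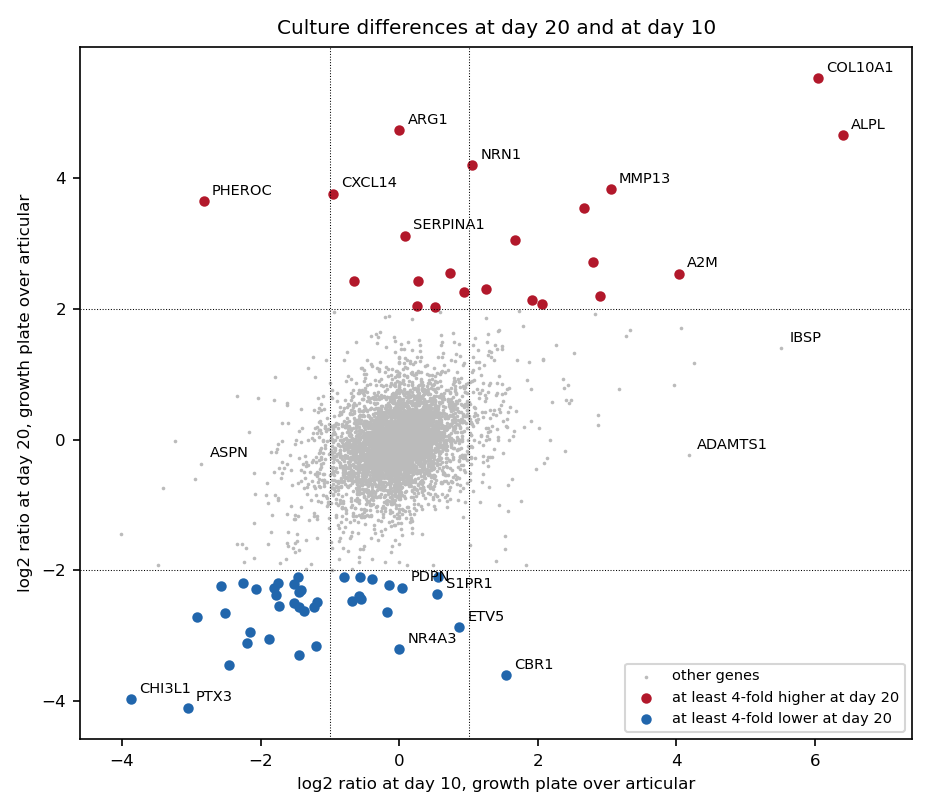
Log2 ratio at day 20 (vertical axis) against that at day 10 (horizontal axis), 1 point a gene, with dotted lines at 4-fold on the vertical and 2-fold on the horizontal axis; the pairs share no array. Of the 22 red points 12 lie right of the right-hand dotted line, and of the 40 blue points 26 lie left of the left-hand one, while ARG1, CXCL14, PHEROC, NR4A3 and CBR1 do not.

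The 24 genes at least 4-fold apart at day 20 that were not 2-fold the same way at day 10 were followed in each culture. Of the 10 on the growth plate side, 9 had a growth plate signal at least 2-fold higher at day 20 than at day 10 with an articular signal that was not 2-fold lower, and PHEROC did both. PHEROC, a subunit of a porcine steroid-binding protein, had 21.7 and 256 at day 10 and 1117 and 89.3 at day 20. CXCL14 had 253 and 490.0 at day 10. SERPINA1, the antitrypsin, had 528 and 597 in native tissue, 38.7 and 36.7 at day 10 and 313 and 32.8 at day 20, so both lay at the floor at day 10 and only growth plate was well above it at day 20. ARG1 had 202 and 164 in native tissue and likewise was above the floor at day 20 only in growth plate.

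On the articular side the 14 genes were more varied. In 6 the articular signal was at least 2-fold higher at day 20 than at day 10, in 5 the growth plate signal was at least 2-fold lower, in 2 both held and in 1 neither. NR4A3, S1PR1, a receptor of sphingosine phosphate, and KCNJ8, a potassium channel of vascular muscle, had articular signals of 35.3, 35.6 and 65.9 at day 10 and 663, 339 and 592 at day 20. Their growth plate signals at day 20 were 72.0, 66.1 and 127. PDPN, podoplanin, a mucin-like membrane protein, had 5614 and 5460.3 at day 10 and 757 and 3634 at day 20, and CD83, an immune surface protein, had log2 ratios of -0.58 and then -2.39; in both, the growth plate signal alone was 2-fold lower at day 20 than at day 10.

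**Figure D5:**
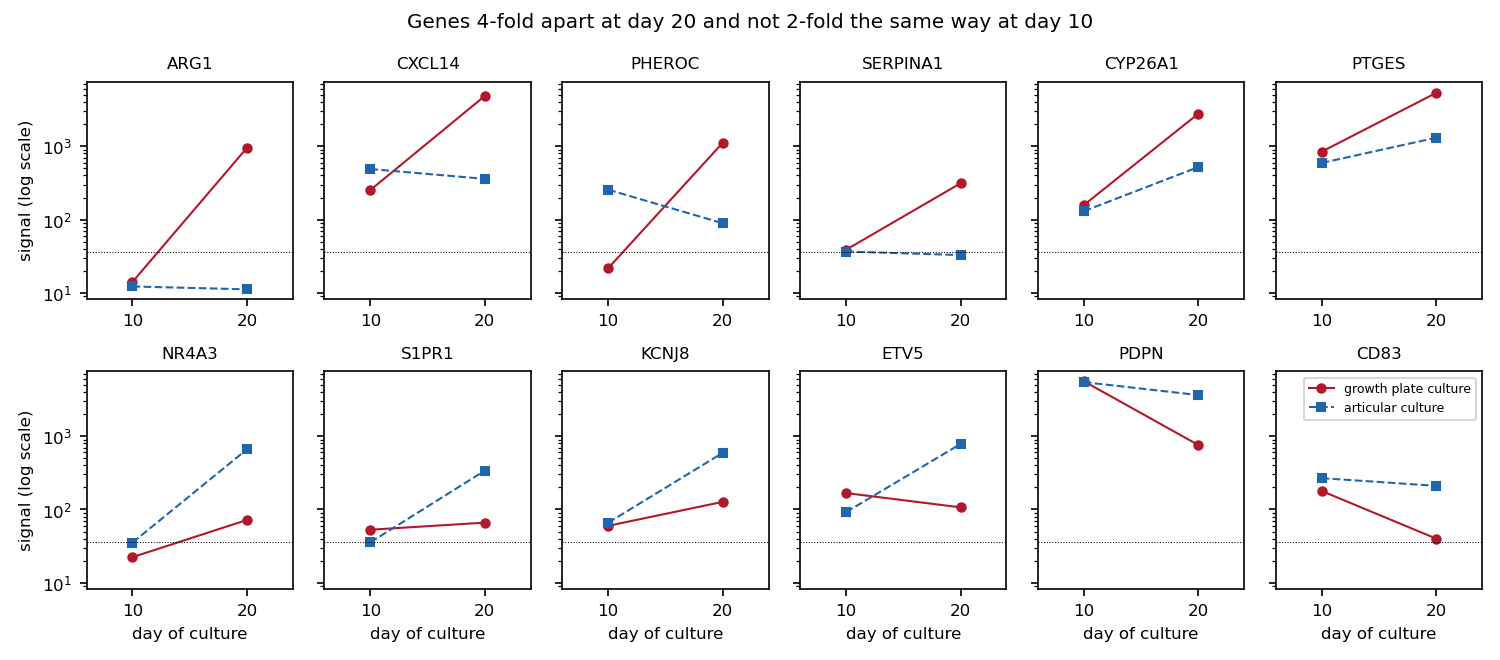
Signals (log scale) of 12 genes in the growth plate (solid red) and articular (dashed blue) cultures at day 10 and day 20, 1 array a point; the dotted line is the floor of 36.1. The upper 6 are at least 4-fold higher and the lower 6 at least 4-fold lower in growth plate at day 20, and none was 2-fold apart in that direction at day 10.

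Some of the genes far apart at day 10 were close at day 20. Of 35 genes at least 4-fold higher in growth plate at day 10 (0.625%), 10 were under 1.5-fold apart at day 20. Of 28 lower (0.5%), 4 were. Both shares were below that of all genes, of which 78.7% were under 1.5-fold apart at day 20. ADAMTS1, an aggrecan-cleaving protease, had 944 and 52.3 at day 10 and 315 and 371 at day 20. SPARCL1, a matricellular protein, had 2978 and 409.8 and then 4635 and 3976. AQP3, a channel for water and glycerol, had 54.4 and 513 and then 115 and 116, and ANGPTL4, an inhibitor of lipoprotein lipase, had 95.0 and 426 and then 739 and 682. Of 11 genes at least 4-fold apart at day 20, the direction had been the opposite by at least 2-fold in another pair, 10 of them in native tissue and 2 at day 10. Native growth plate exceeded native articular cartilage by 4-fold or more in 193 genes (3.45%). By day 20, 32 of these still differed 2-fold in that direction, as did 2.84% of all genes, and 113 were under 1.5-fold apart, as were 78.7% of all genes.

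Whether a large ratio was seen by more than 1 probe set could be checked for some genes. Of the 62 genes at least 4-fold apart at day 20, 15 had another probe set above the floor on a day 20 array, 23 such probe sets in all. Of the 23, 21 gave a ratio in the same direction, 15 of them at least 2-fold and 8 at least 4-fold, and 0 gave at least 2-fold in the opposite direction. FNTA, a farnesyltransferase subunit, was a gene whose probe sets differed: the one used had 2079 and 13604, a 6.54-fold lower signal in growth plate, and another had 1764 and 2036, a log2 ratio of -0.21. KCNJ8, S1PR1, ITM2A and CXCL14 had another probe set that was also at least 4-fold apart. With the mean over a gene's probe sets in place of 1, 42 of the 62 genes remained at least 4-fold apart. A2M, GYS1 and FNTA then had log2 ratios of 0.85, 0.75 and -0.97. FST, IGF1, FGFR1, COL5A2, TIMP3, MCM5 and KLF9 were under 2-fold apart, at log2 ratios of -0.82, -0.40, -0.65, 0.92, 0.76, -0.43 and -0.64. The genes nearest the 4-fold rule were PTGES at 4.08-fold and GYS1 at 4.12-fold inside it and DOCK9 at 3.90-fold and LUM at 3.86-fold outside it on the growth plate side. On the articular side they were TST at at least 4.29-fold and LAYN at 4.30-fold inside it and CCL5 at at least 3.95-fold and LOC100153094 at at least 3.99-fold outside it.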

How the data were processed

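RNA of 6 conditions was hybridised to porcine Affymetrix arrays, 1 array each. The authors deposited intensities, 1 linear signal per probe set, and the submitters' processing notes name GCOS 1.4. The trimmed mean (2% off each end) differed between arrays by under 1 part in 1000; the scaling target and detection calls are not given in the sources used here. Of 24123 probe sets, 124 controls were left out, 10069 carried 1 gene symbol in the platform annotation (9961 with a current gene ID), 198 several and 13732 none. Each of 6765 genes was represented by its brightest probe set (mean log2 signal of the 6 arrays). Signals were floored at the 40th percentile, 36.1, and the 5598 genes above it on at least 2 arrays were compared as log2 ratios (Python 3.11.15, pandas 2.3.3, numpy 2.4.6). With 1 array per condition no test was run, and precision is limited by the number of arrays. The arithmetic was tested by putting known ratios of bright genes into the real values. Signals near the floor were not part of that test. Alternatives were 2 normalizations, other floors, a pseudocount of 32, other filters, other treatment of probe sets and other size rules.

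The gene lists, marker lists and rules for naming genes were chosen with earlier results of these data known. Named genes are the 15 largest ratios in each direction, the 6 largest in each list, 11 cartilage genes whatever their value, up to 12 that changed sides, and up to 8 each way new at day 20 or close again by day 20. Other genes were named after their values were seen: ACTA2, ANKRD1, AQP1, BGLAP, C1H14orf37, C1QTNF2, CCL2, CD34, COL3A1, CXCL8, DMP1, DOCK9, DPT, ENO1, GAPDH, HK1, ICAM1, LAYN, LEP, LOC100153094, MFAP5, MICALL2, NFKBIA, OAF, PDGFRB, PFKP, PTGS2, RBP4, RGS5, S100B, SCD5, SST, THY1, TPI1, TSPAN13, TST, UNC5B and VEGFA.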

Additional observations from a re-analysis of the deposited data

Results flagged for a closer look

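In 11 of the 62 genes at least 4-fold apart at day 20, the ratio in another pair of arrays was at least 2-fold the other way. In native tissue this held for 1 of the 22 higher genes and 9 of the 40 lower ones, where 7.88% and 12.9% of all genes lay on that side. At day 10 it held for 1 of the 22 and 1 of the 40, where 3.88% and 3.41% of all genes did. With 1 array per condition, the difference between the pairs was not tested. ENC1, an actin-binding protein, and PHEROC were the 2 on the growth plate side. PHEROC had a log2 ratio of 3.65 at day 20 and was at least 7.08-fold lower in growth plate at day 10. ENC1 had 2.30 at day 20, 1.25 at day 10 and -1.10 in native tissue.

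The other 9 were lower in growth plate at day 20 and higher in native growth plate. CBR1 had -3.60 at day 20, after 1.54 at day 10 and 2.68 in native tissue, so its turn came between the culture days. In 6 genes the log2 ratio of the probe set used had already turned by day 10. CDO1 had -2.94 at day 20, -2.15 at day 10 and 1.72 in native tissue. FNTA had -2.71, -2.92 and 2.09, but its other probe set above the floor gave -0.21 at day 20, 0.31 at day 10 and -1.27 in native tissue. TGFB3 had -2.19, -2.26 and 2.68, but its other probe set did not change sides, with -0.79 at day 20 and -0.46 in native tissue. SEPT4, a septin, had -2.48, -1.19 and 2.29. FIBIN, a secreted protein, had -2.20, -1.52 and 1.43, and F2R, a thrombin receptor, had -2.19, -1.75 and 2.62. The remaining 2 were less than 2-fold apart at day 10. S1PR1 had -2.36 at day 20, 0.55 at day 10, and in native tissue a ratio of at least 3.02-fold the other way, and NAP1L5, a nucleosome assembly protein, had -2.13, -0.39 and 2.27.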

How the results depend on the processing

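No replicate exists, so no result has an error, none could be recomputed without a replicate, and signals give no depth. What limits a value is its distance from background: 14 of the 62 ratios of at least 4-fold are lower bounds. No paired analysis was possible because each condition has 1 array and the labels give no replicate numbers. The main counts were 22 genes higher, 40 lower, 38 of them at least 2-fold the same way at day 10 and 27 in native tissue. With the floor at the 25th percentile 62 genes were lower. With the floor at the 60th percentile the 4 counts were 11, 19, 19 and 13, with 30 of the 62 genes kept. Averaging each gene's probe sets, 25 genes were lower, and 24 genes went the same way at day 10. An 8-fold rule gave 10, 9, 13 and 11, and a 2-fold rule 159, 226, 117 and 122. The other counts stayed within 1.5 times the main ones under quantile normalization, median scaling, the pseudocount and the 3 other filters. No named gene or list median changed sign after passing its rule. Of the comparisons of named genes with an alternative, 1606 kept their side of the rule, 35 fell short of it and 6 newly passed it; for list medians, read against a log2 ratio of 0.5, 234 kept it and 9 fell short. The alternative of choosing the probe set after the floor, added after seeing the data, gave 22 and 42.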

Other observations

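Genes at least 4-fold apart at day 20 that the text has not yet described lay mostly on the articular side. OAF, a secreted protein, had 101 in growth plate and 491 in articular cultures, and C1QTNF2, a secreted protein with a C1q domain, had 193 and 934. MICALL2, a regulator of junction trafficking, had 30.2 and 203, and LAYN, layilin, a receptor of hyaluronan, had 41.8 and 179.7. SCD5, a fatty acid desaturase, had 72.8 and 400.4, and TST, a mitochondrial sulphurtransferase, had 2.92 and 155. C1H14orf37 and C8H4orf48 had 56.8 and 35.8 in growth plate cultures, against 293 and 196 in the articular ones. On the growth plate side, TSPAN13, a tetraspanin, had 433 and 95.0 at day 20 and 1185 and 159 at day 10. ANKRD1, a stretch-responsive muscle protein, had 172 and 7.07 at day 20, and SST, somatostatin, had 8.10 and 212.

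Probe sets without a single gene symbol held further differences. Of 13930 such probe sets, 8062 passed the filter, and 35 of them were higher in growth plate at day 20 by 4-fold or more (0.434%) and 48 lower (0.595%). Among genes the shares were 0.393% and 0.715%. The largest ratios of these probe sets were 16.6-fold higher and 126-fold lower.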
